A study of Homo sapiens with 12 samples.

Results

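Motor proteins that move along microtubules, proteins that bind the polymer, and proteins of the centrosome were followed in HEK293 cells, a human embryonic kidney line transformed with adenovirus DNA. The cells had received either an RNA made to act as miR-1825, called the mimic here, or the AllStars negative control siRNA. Both RNAs were used at 5 nM, and total RNA was taken 24 h later. Each group had 6 arrays (Affymetrix Human Gene 2.0 ST), and both groups were transfected. In its title the series ties this microRNA to the motor neuron disease amyotrophic lateral sclerosis (ALS), and its purpose was to find the mRNAs it targets. The labels do not say whether the 6 replicates were grown separately. All p-values below therefore reflect the spread among these arrays, part or all of which could be technical.

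The family was taken by gene symbol: kinesin motors and light chains (KIF, KLC), cytoplasmic dynein and dynactin (DYNC, DYNL, DCTN), structural microtubule-associated proteins and stathmins (MAP, STMN), plus-end proteins (MAPRE, CLASP, CLIP), gamma-tubulin (TUBG) and the numbered centrosomal proteins (CEP). KIF3A, KIF3C, KIF5B and KIF18A were left out. Of 14884 named genes, 108 were members. They comprised 38 kinesin motors (12 of them mitotic), 4 kinesin light chains, 3 DYNLT genes, 2 dynein-2 genes, 6 dynactin genes, 13 lattice-binding proteins and stathmins, 5 plus-end proteins and 37 numbered centrosomal proteins. No named row carried a MAPRE or TUBG symbol, a dynein-1 heavy or intermediate chain, or DYNLL1, and these genes were not analysed here. All 108 were measured on every array, no filter on low values was applied to them, and 98 had a mean at or above 4.48, the median of all transcript clusters (the array's units that gather the probes of one gene or transcript). Levels are log2 values as deposited. A difference of 1 on this scale is a 2-fold change.

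Kinesins are ATP-driven motors that mostly walk toward the plus end of a microtubule and carry vesicles, organelles and mRNA outward in neurons, while cytoplasmic dynein, helped by dynactin, carries cargo back. In dividing cells other kinesins build the spindle, align chromosomes and drive cytokinesis. The centrosome is a pair of centrioles in a protein matrix that nucleates microtubules, and the same centriole becomes the basal body of the primary cilium. Long-distance transport along axons is a recurrent theme of motor neuron disease, and the motor gene KIF5A and the dynactin gene DCTN1 are both linked to ALS.

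MiR-1825 is shown because the mimic was made to act as this microRNA. Its mature sequence in RefSeq (GRCh38.p14, chr20:32237830-32237847, plus strand) is printed with the seed, bases 2 to 8, in capitals, the part by which a microRNA mainly recognises mRNAs.
hsa-miR-1825: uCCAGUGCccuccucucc
None of the other human mature microRNAs in the RefSeq table, which holds 2545 entries, shared this seed. Sites for it in the members' transcripts were not analysed here.

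No member passed the limma test (Benjamini-Hochberg adjusted p threshold 0.05, over all 53617 clusters), and the smallest adjusted p of a member was 0.214. The background was as sparse: 6 of the 53617 clusters passed, 0.0112%, none of them among the 14884 named genes. Members are therefore described by direction and size, beside the same measure over all named genes. At an unadjusted limma p under 0.05, 18 members stood apart, 15 of them higher and 3 lower after the mimic. Over all named genes 6.69% were higher and 4.19% were lower by that rule, and over the 10698 named genes at or above the median 8.36% and 3.77%. The members' shares were 13.9% and 2.78%. Of the 108 members 76 had a higher mean, 70.4% against 50.1% of all named genes and 54.6% of those at or above the median, and their median difference was 0.05 against 0.0002 (0.01 among named genes at or above the median). After quantile normalization of the arrays the split at the unadjusted p was 11 higher and 5 lower, and the background shares at or above the median became 5.99% and 5.98%. When the brightest 25% of clusters alone were tested, 1.81% of them passed the adjusted threshold, and 2 members did, CEP290 (limma adjusted p = 0.0327) and KIF20B (limma adjusted p = 0.0476). With an array left out as well, CEP290 passed in 4 of 12 cases and KIF20B in 1. With all 12 arrays, 22 of the 76 members in that brightest 25% were higher and 4 lower at an unadjusted limma p under 0.05. Of the named genes there 15.4% were higher and 4.98% lower, and 59.9% had a higher mean, as did 56 of the 76 members.

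**Figure D1:**
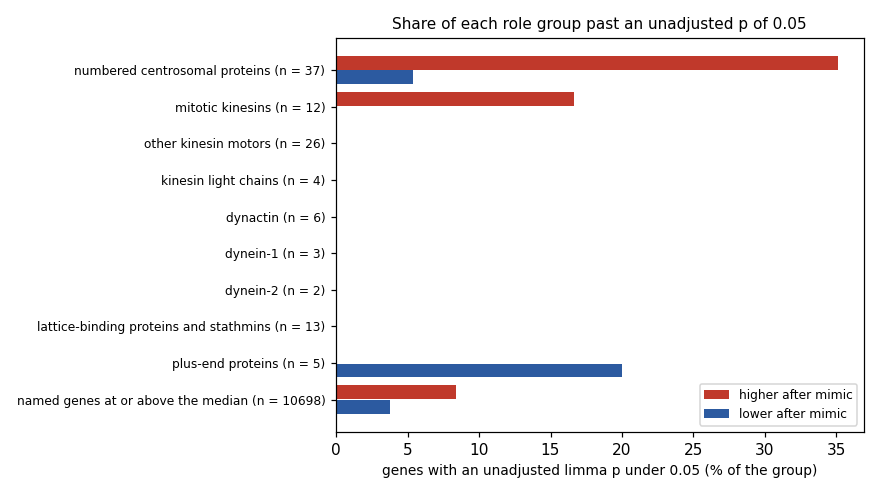
Bars give the percentage of genes in each role group with an unadjusted limma p under 0.05, higher (red) or lower (blue) after the mimic, with the number of genes in brackets and the named genes with a mean of 4.48 or more in the last row. The numbered centrosomal proteins reach 35.1% higher against 8.36% in the last row, while 6 of the 9 role groups have no gene past this p.

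Most of the higher members, 13 of 15, were centrosomal genes. Of the 37 numbered centrosomal proteins 33 had a higher mean after the mimic, and 13 were higher and 2 lower at an unadjusted limma p under 0.05. That is 35.1% higher and 5.41% lower, against 8.36% and 3.77% of the named genes at or above the median. After quantile normalization the counts were 9 higher and 2 lower, against 5.99% and 5.98%. In the brightest 25% of clusters fitted alone, 13 of 31 were higher and 2 lower, against 15.4% and 4.98% of the named genes there. The median difference of the 37 was 0.09 without quantile normalization. The 71 other members had 2 higher and 1 lower by the same rule, 2.82% and 1.41%, and a median difference of 0.03. The names in this group share a numbering by molecular mass rather than a sequence family, so the genes are taken below by their places in the centriole and cilium. The 2 pseudogenes in the group, CEP170P1 and CEP192P1, were not among the 13.

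**Figure D2:**
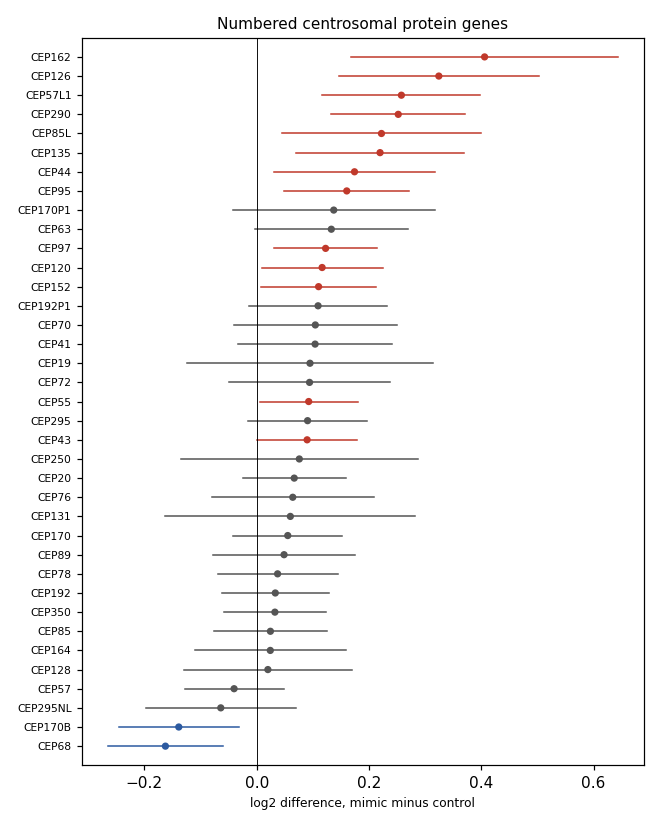
Points give the log2 difference, mimic minus control (6 arrays each), for each of the 37 numbered centrosomal protein genes, and lines its 95% interval from limma. The 13 red genes are higher and the 2 blue genes, CEP68 and CEP170B, lower at an unadjusted p under 0.05. The differences run from -0.16 to 0.41.

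CEP290, CEP162 and CEP126 act at the cilium and its base. They were higher at an unadjusted limma p under 0.05 and were grouped after their values were seen. CEP41, CEP19 and CEP131, not placed in this group, had differences of 0.10, 0.09 and 0.06 with intervals across 0. CEP89 and CEP164, described below, also had intervals across 0. CEP290, a protein of the ciliary transition zone whose loss causes retinal and kidney ciliopathies, had control values of 7.68 at the lowest, 7.77 at the median and 7.83 at the highest. The mimic values of CEP290 were 7.89, 8.03 and 8.16. Every mimic array thus lay above every control, and the log2 difference was 0.25 (SE 0.06, 95% interval 0.13 to 0.37, 1.19-fold, limma adjusted p = 0.214). CEP162, a protein of transition zone assembly, ran from 6.25 through 6.40 to 6.78 in controls. After the mimic CEP162 ran from 6.62 through 6.84 to 7.11. Its difference, 0.41 (SE 0.11, limma adjusted p = 0.245), was the greatest of the 108 members, but 3 of 6 mimic arrays fell inside the control range. CEP126, a centrosomal protein needed for the primary cilium, went from 5.44, 5.61 and 5.80 (lowest, median, highest control) to 5.66, 5.98 and 6.08. The difference of CEP126 was 0.32 (SE 0.08, limma adjusted p = 0.240), and 5 of 6 mimic arrays exceeded all controls. HEK293 cells can grow primary cilia, but neither cilia nor protein was measured.

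Of 8 genes of centriole duplication and maturation described here, 4 were higher at an unadjusted limma p under 0.05 (CEP135, CEP152, CEP120 and CEP44) and 4 did not pass it; these genes were grouped after their values were seen. CEP135, a protein of the cartwheel on which a new centriole is built, ranged from 7.29 to 7.59 in controls (median 7.40) and from 7.45 to 7.84 after the mimic (median 7.64), a difference of 0.22 (SE 0.07, limma adjusted p = 0.298). CEP152, the scaffold that brings the kinase PLK4 to the mother centriole, differed by 0.11 (SE 0.05, limma adjusted p = 0.438). Its partner CEP63 differed by 0.13 (SE 0.06) and did not reach the unadjusted threshold. CEP192, the other PLK4 scaffold, differed by 0.03 with an interval from -0.06 to 0.13. CEP120, which lengthens centrioles, had a difference of 0.12 (limma adjusted p = 0.436), and CEP44, which helps a new centriole mature into a centrosome, one of 0.17 (limma adjusted p = 0.381). In CEP44 the groups overlapped, with only 2 mimic arrays above the highest control. CEP295, another maturation factor, had 0.09 and CEP76, which restrains extra duplication, 0.06, with intervals that include 0.

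Genes that act at the ends and neighbours of the centriole were mixed in size. CEP97, which with CCP110 caps the distal end of the centriole and holds back the cilium, went from 8.21, 8.29 and 8.37 (lowest, median, highest control) to 8.39, 8.42 and 8.46. No mimic array of CEP97 overlapped the controls, although the difference was only 0.12 (SE 0.04, 1.09-fold, limma adjusted p = 0.336). CEP43, a satellite and centriole protein also called FOP, differed by 0.09 (limma adjusted p = 0.463), and its relative CEP20 by 0.07. The distal appendage genes CEP89 and CEP164 had 0.05 and 0.02, and CEP128 of the subdistal appendages 0.02, all with intervals across 0. CEP95, whose mimic arrays ran from 8.46 to 8.68 against 8.29 to 8.47 in controls, differed by 0.16 (SE 0.05, limma adjusted p = 0.305).

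The 2 lower genes included a component of the linker that ties the centriole pair together in interphase. CEP68, a protein of that linker, had control values of 6.924, 6.99 and 7.09 (lowest, median, highest). After the mimic they were 6.73, 6.84 and 6.919. All 6 mimic arrays lay below all 6 controls, by a narrow margin at the nearest pair, and the log2 difference was -0.16 (SE 0.05, 0.893-fold, limma adjusted p = 0.274). CEP250, the anchor of the same linker, did not follow it, with a difference of 0.08 and an interval from -0.14 to 0.29. CEP170B, a relative of the subdistal appendage gene CEP170, went from 6.97, 7.06 and 7.20 to 6.85, 6.95 and 6.98, a difference of -0.14 (SE 0.05, limma adjusted p = 0.348), while CEP170 itself had 0.06.

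Several of these genes have relatives or copies on the array, taken here as pairs by name after their values were seen. CEP57L1 had control values of 6.43, 6.61 and 6.77 and mimic values of 6.80, 6.84 and 7.004, so that no arrays overlapped, with a difference of 0.26 (SE 0.07, 1.20-fold, limma adjusted p = 0.240). CEP57, its parent paralogue and a centriole-surrounding protein, had -0.04 with an interval from -0.13 to 0.05. CEP85L differed by 0.22 (limma adjusted p = 0.361) at a mean of 4.49, close to the array median where background was not known, and CEP85 by 0.02. In another pair the parent gene lay on the higher side, with 0.09 for CEP295 and -0.06 for CEP295NL, both with intervals across 0. The differences of the pairs themselves were not tested. The pseudogenes CEP170P1 and CEP192P1, at 0.14 and 0.11, can bind transcripts of CEP170 and CEP192, and these assignments are uncertain. CEP295NL and CEP192P1 had means of 4.02 and 3.79, under the median of all clusters, where no level above background could be set.

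CEP55 belongs by name to this group and by function to cell division, where it recruits the membrane-cutting ESCRT proteins to the midbody. Its control values were 8.9998, 9.11 and 9.146 and its mimic values 9.155, 9.20 and 9.23. The groups touched without overlapping, and the difference was 0.09 (SE 0.04, limma adjusted p = 0.445).

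**Figure D3:**
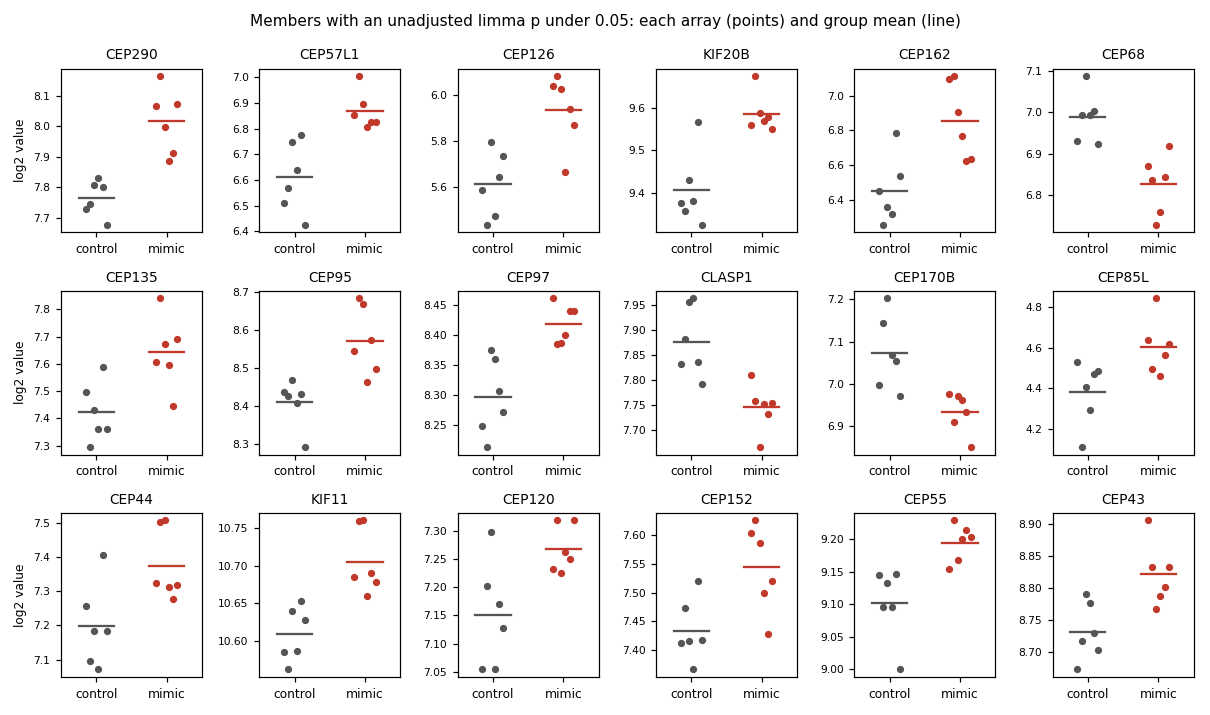
Each panel is one of the 18 members with an unadjusted limma p under 0.05, in order of that p; points are the 6 control and 6 mimic arrays, lines the group means, and the vertical axis is the log2 value on a scale of its own that does not start at 0. The groups do not overlap in CEP290, CEP57L1, CEP97, CEP55 and KIF11, where the mimic is higher, and in CEP68, where it is lower.

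Counted over all members, 5 had every mimic array above every control and 1 had every mimic array below, against 1.34% and 0.403% of all named genes and 1.83% and 0.486% of those at or above the median. The 5 are CEP290, CEP57L1, CEP97, CEP55 and KIF11, and the 1 is CEP68. The median deviation of the 37 centrosomal genes from their 12-array means was lowest in control replicate 6, at -0.09, and highest in mimic replicate 2, at 0.08. The 6 controls ran from -0.09 to 0.004 and the 6 mimic arrays from 0.01 to 0.08, without overlap. The named genes at or above the median ran from -0.03 to 0.01 in controls and from -0.01 to 0.02 after the mimic, with overlap and in the same direction. The part of this array-wide shift in the centrosomal result was not tested.

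**Figure D4:**
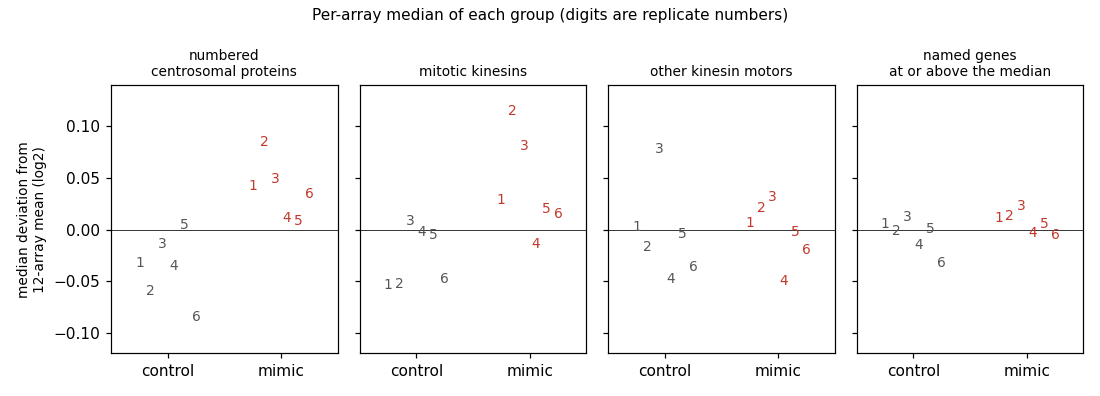
Digits are the replicate numbers of single arrays, placed at the median log2 deviation of a gene group from its 12-array means, with controls in grey and mimic arrays in red. The centrosomal genes separate the groups, the mitotic kinesins overlap through mimic replicate 4, and the other kinesin motors and the named genes at or above the median overlap broadly.

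Among the motors, most kinesins of mitosis had a higher mean, while the other kinesins split evenly; the difference between these groups was not tested. Of the 12 mitotic kinesins 10 had a higher mean, with a median difference of 0.07. At an unadjusted limma p under 0.05, 2 were higher, 16.7% against 8.36% of named genes at or above the median. All 12 lay in the brightest 25% of clusters. When these clusters were fitted alone, 15.4% of named genes were higher by that rule, and 59.9% had a higher mean. KIF15, KIF20A and KIF23 then passed it too. KIF20B, a motor of the central spindle in cytokinesis, had control values of 9.32, 9.38 and 9.57 (lowest, median, highest) and mimic values of 9.55, 9.57 and 9.67. All but 1 of the controls lay below every mimic array, and the difference was 0.18 (SE 0.05, 1.13-fold, limma adjusted p = 0.245). KIF11, the Eg5 motor that pushes the spindle poles apart, went from 10.56, 10.61 and 10.65 to 10.66, 10.69 and 10.76. No arrays overlapped, at a difference of 0.10 (SE 0.04, 1.07-fold, limma adjusted p = 0.416).

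The other mitotic kinesins did not reach the unadjusted threshold in the fit of all clusters. KIF15, which can stand in for KIF11, had 0.14 (SE 0.06, 95% interval from -0.001 to 0.28). KIF20A, a cytokinesis motor, had 0.13 and KIF23, the motor of the centralspindlin complex, 0.09. KIF14 of the midbody had 0.08, KIFC1, a minus-end motor that clusters poles, 0.05 and KIF22, a chromosome-arm motor, 0.03. KIF2C, which depolymerises microtubules at kinetochores, was on the other side at -0.04, and KIF18B was at 0.01. KIF4A and its intronless copy KIF4B had 0.06 and -0.05, each with SE 0.10, and their near-identical sequences make both assignments uncertain.

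Promoters of KIF11, KIF20B, CEP55 and CEP290, chosen without a fixed rule from the 15 members that lay higher, are shown. Cell-cycle genes often carry 2 short elements near their start: CCAAT, bound by NF-Y, and TTTGAA, the core of the cell cycle homology region. The 250 bases before the start in RefSeq are printed 5′ to 3′ on the gene's strand, with matches to CCAAT or TTTGAA on either strand in capitals. No 2 matches overlapped in these windows.
KIF11 (GRCh38.p14, chr10:92592880-92593129, plus strand): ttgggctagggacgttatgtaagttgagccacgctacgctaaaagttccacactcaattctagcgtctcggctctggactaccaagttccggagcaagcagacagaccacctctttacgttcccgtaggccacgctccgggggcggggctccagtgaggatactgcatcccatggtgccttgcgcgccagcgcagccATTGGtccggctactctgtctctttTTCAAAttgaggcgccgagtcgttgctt
KIF20B (GRCh38.p14, chr10:89701340-89701589, plus strand): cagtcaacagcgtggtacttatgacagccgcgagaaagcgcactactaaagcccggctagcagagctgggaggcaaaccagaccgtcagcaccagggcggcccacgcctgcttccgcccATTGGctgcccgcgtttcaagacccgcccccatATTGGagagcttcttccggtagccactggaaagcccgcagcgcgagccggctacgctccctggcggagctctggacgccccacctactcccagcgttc
CEP55 (GRCh38.p14, chr10:93496362-93496611, plus strand): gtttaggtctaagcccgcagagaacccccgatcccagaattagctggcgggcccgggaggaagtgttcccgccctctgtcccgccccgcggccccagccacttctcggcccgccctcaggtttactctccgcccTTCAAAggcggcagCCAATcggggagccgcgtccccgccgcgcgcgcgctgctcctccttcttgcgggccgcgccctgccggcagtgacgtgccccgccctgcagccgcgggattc
CEP290 (GRCh38.p14, chr12:88142089-88142338, minus strand): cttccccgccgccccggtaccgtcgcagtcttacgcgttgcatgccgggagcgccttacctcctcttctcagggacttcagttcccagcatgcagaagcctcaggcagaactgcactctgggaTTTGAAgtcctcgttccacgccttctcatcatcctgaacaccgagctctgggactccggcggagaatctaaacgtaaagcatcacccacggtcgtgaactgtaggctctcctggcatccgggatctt
KIF11 and CEP55 held 1 match to each element, KIF20B held 2 to CCAAT and none to TTTGAA, and CEP290 held 1 to TTTGAA and none to CCAAT. Of the 108 members 88 had a promoter in the table. CCAAT occurred in 10 of the 12 mitotic kinesin promoters and in 17 of 31 centrosomal ones, against 33.0% of all 27305 promoters. In the other kinesin motors it was 5 of 18. TTTGAA occurred in 4 of the 12, 7 of the 31 and none of the 18, against 13.6% of all. Over all 88 member promoters CCAAT occurred in 40 (45.5%) and TTTGAA in 13 (14.8%). In the promoters of all 15 members higher at an unadjusted limma p under 0.05, CCAAT occurred in 8, TTTGAA in 4 and both in 3. Both occurred in 10 of the 88 and in 4.85% of all promoters. The half-site GTTGCC of the X-box, an element of cilium genes, was searched on both strands too, and occurred in 6 of the 31 centrosomal promoters, 2 of the 12 mitotic and 3 of the 18 other kinesin promoters, and 16 of all 88, against 10.1% of all promoters. A match is a run of letters, not a site of binding.

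**Figure D5:**
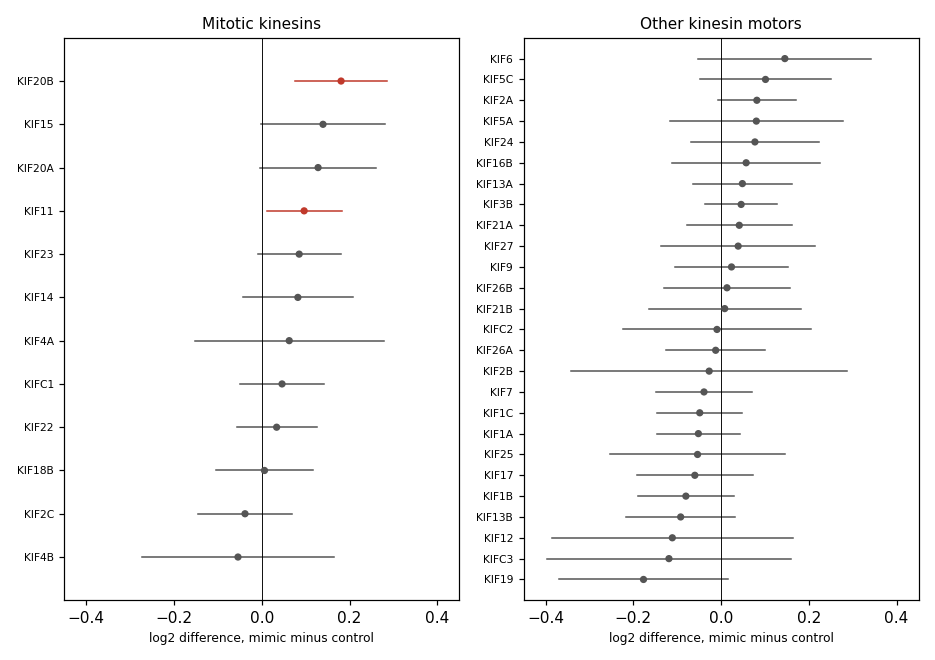
Points give the log2 difference, mimic minus control (6 arrays each), and lines its 95% interval from limma, for the 12 mitotic kinesins (left) and the 26 other kinesin motors (right). KIF20B and KIF11, in red, are the kinesins with an unadjusted p under 0.05; the 26 others scatter on both sides of 0.

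The 26 other kinesin motors split evenly, 13 with a higher and 13 with a lower mean, with a median difference of -0.0006, and none had an unadjusted limma p under 0.05. KIF2A, a depolymerising kinesin, came nearest among those higher, from 9.67, 9.75 and 9.80 in controls to 9.80, 9.80 and 9.92 after the mimic. Only 1 mimic array of KIF2A lay within the control range, yet the difference was 0.08 (SE 0.04, limma adjusted p = 0.509). KIF19, a depolymerising kinesin of cilia, had the most negative difference of all members, -0.18, with a wide interval from -0.37 to 0.02. The vesicle transporters KIF13B, KIF1B, KIF1A and KIF1C had -0.09, -0.08, -0.05 and -0.05, and KIF13A and KIF16B, of the same kinesin-3 family, had 0.05 and 0.06. Each of these 6 had an interval across 0. KIF3B, a motor of the cilium-building kinesin-2, had 0.05 with a narrow interval from -0.04 to 0.13. KIF7, the Hedgehog regulator at the cilium tip, had -0.04 and KIF17, a second ciliary kinesin-2, -0.06.

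KIF5A, the neuronal conventional kinesin mutated in some ALS families, did not separate the groups. Control values of KIF5A were 6.01, 6.27 and 6.37 and mimic values 6.13, 6.26 and 6.67, for a difference of 0.08 (SE 0.09, 95% interval from -0.12 to 0.28, limma adjusted p = 0.793). Its neuronal relative KIF5C had 0.10 with an interval from -0.05 to 0.25. The kinesin light chains, which bind cargo for these motors, had differences between -0.06 (KLC2) and 0.05 (KLC3), none with an unadjusted limma p under 0.05. KLC4 had 0.04. KLC1 had 0.01, and its direction turned to -0.01 after quantile normalization.

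Dynactin, the adaptor that makes dynein processive, showed no member past the unadjusted threshold. DCTN1, its largest subunit p150Glued and an ALS-linked gene, ran from 8.71 through 8.82 to 8.83 in controls and from 8.77 through 8.85 to 8.94 after the mimic. That is a difference of 0.06 (SE 0.04, 95% interval from -0.04 to 0.15, limma adjusted p = 0.685), with 3 of 6 mimic arrays above all controls. The pointed-end subunits gave 0.10 for DCTN6 (limma adjusted p = 0.509), 0.09 for DCTN4 and -0.04 for DCTN5. The shoulder subunits DCTN2 and DCTN3 had -0.05 and 0.04. Of the dynein-2 motor, which returns cargo from the cilium tip, the intermediate chain genes DYNC2I2 and DYNC2I1 differed in sign, at -0.11 (95% interval from -0.24 to 0.01) and 0.11 (from -0.08 to 0.30). The Tctex-type light chain genes DYNLT2, DYNLT4 and DYNLT5 had -0.09, -0.02 and -0.08, and 2 of them had means under the median of all clusters, where no level above background could be set.

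Proteins that lie along the microtubule gave no member past the unadjusted threshold among 13. STMN3, a stathmin that binds free tubulin, came nearest, with controls of 7.21, 7.51 and 7.74 and mimic arrays of 7.49, 7.75 and 7.86. The spread of its controls was wide, and the difference of 0.21 had an interval from -0.003 to 0.41 (limma adjusted p = 0.473). STMN1, the main stathmin of dividing cells, had 0.09. MAP9, a spindle protein also called ASAP, had 0.10 (limma adjusted p = 0.525) and MAP1S -0.10 (limma adjusted p = 0.533). MAP7, which recruits kinesin-1 to microtubules, had -0.04 and MAP4, the general stabiliser of non-neuronal cells, 0.02.

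The neuronal proteins tau and MAP2 also differed by less than their spread. MAPT, the tau gene, had controls of 6.31, 6.36 and 6.44 and mimic arrays of 6.23, 6.37 and 6.42, a difference of -0.02 (95% interval from -0.12 to 0.08, limma adjusted p = 0.932). MAP2, a dendrite protein, had 4.75, 4.90 and 5.07 against 4.78, 4.92 and 5.14, a difference of 0.04 (interval from -0.12 to 0.19). The signs of MAPT and MAP2 turned when single arrays were left out. STMN2, a neuronal stathmin, had a mean of 3.80, under the median of all clusters.

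The plus-end proteins, which track growing microtubule tips, held the third lower gene. CLASP1, which rescues and stabilises microtubules at kinetochores and the cell cortex, went from 7.79, 7.86 and 7.96 in controls to 7.67, 7.75 and 7.81 after the mimic. In 5 of 6 mimic arrays it lay below all controls, for a difference of -0.13 (SE 0.05, 0.913-fold, limma adjusted p = 0.337). CLASP2, its close relative, had 0.04 with an interval from -0.06 to 0.14, and the difference between the 2 was not tested. CLIP1, the CLIP-170 protein that links tips to vesicles and to dynactin, had 0.09 (limma adjusted p = 0.566) and CLIP3 had 0.06, both with intervals across 0.

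Genes of the same machinery outside the symbol rule also mostly had higher means. Of 65 other microtubule and centrosome genes listed, 35 had a named row, 28 of them with a higher mean (80%). At an unadjusted limma p under 0.05, 6 were higher and 1 lower, 17.1% and 2.86%. The named genes at or above the median had 8.36% and 3.77%. These 35 genes were brighter than that background, with a median level of 8.44 against 6.83. In the brightest 25% of clusters fitted alone, 15.4% of named genes were higher and 4.98% lower, and 59.9% had a higher mean. The list was chosen with earlier results of these data known and was not counted in that fit. The median difference of the 35 was 0.06. SPAST, the severing enzyme spastin mutated in hereditary spastic paraplegia, had a mean of 9.22 ± 0.07 in controls and 9.43 ± 0.03 after the mimic (SD, n = 6 each), with every mimic array above every control (limma adjusted p = 0.199). PLK4, the kinase that starts centriole duplication, differed by 0.21 (limma adjusted p = 0.308) and SASS6, the cartwheel core protein, by 0.13 (limma adjusted p = 0.365). ACTR10, a dynactin pointed-end subunit, differed by 0.28 (limma adjusted p = 0.253).

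Most listed genes of G2 and mitosis also had higher means after the mimic. Of 28 such genes outside the family, chosen with earlier results of these data known, 24 had a named row. Of these, 20 had a higher mean and 9 were higher, with 0 lower, at an unadjusted limma p under 0.05 (37.5% against 8.36%). The list was brighter than that background, with a median level of 9.65 against 6.83. In the brightest 25% of clusters fitted alone, where the list was not counted, 15.4% of named genes were higher. The median difference of the 24 was 0.08, and the list's summed linear level ran from 21980 to 22630 in controls and from 22940 to 23800 after the mimic. CCNB1, CKAP2L, CKAP2 and NUSAP1 had the smallest p, with differences of 0.20, 0.17, 0.12 and 0.10 and limma adjusted p values of 0.189, 0.237, 0.328 and 0.337. The part of cell-cycle stage in the results on members was not tested, and in bulk RNA more cells in G2 and more RNA per cell cannot be told apart.

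The cell line was checked by marker genes. Of 8 genes listed for HEK293, 5 had a named row. They were LIN28B at 9.99, VIM at 8.05, CD24 at 5.80, PAX2 at 5.60 and SOX11 at 3.81 (12-array means). Of the 5, 4 had means of 4.48 or more. None had an unadjusted limma p under 0.05, and CD24 came nearest, with a difference of 0.26 (limma adjusted p = 0.471). The neurofilament genes were not analysed here. For other cell types 3 of 8 fibroblast, 3 of 8 leukocyte and 7 of 10 epithelial markers had a named row. Their median differences were 0.02, -0.04 and -0.02. The summed linear level ran from 89.1 to 102 and from 89.9 to 106 for fibroblast markers in controls and mimic arrays, from 68.9 to 88.2 and from 57.5 to 72.1 for leukocyte markers, and from 364 to 421 and from 366 to 394 for epithelial markers. The one leukocyte marker at an unadjusted p under 0.05 was SPI1, with a difference of -0.31 (limma adjusted p = 0.347), and the one epithelial marker was CLDN7, at -0.22 (limma adjusted p = 0.379). Their part in the results on members was not tested. The collagen genes and PTPRC were not analysed here. Among fibroblast markers LUM stood at 5.71, THY1 at 5.27 and DCN at 2.66. Among leukocyte markers SPI1 stood at 5.55, CD14 at 3.86 and LYZ at 3.02. LUM, THY1 and SPI1 were thus above 4.48, as most of the HEK293 genes were. The 7 epithelial markers ran from 3.33 to 7.95, with EPCAM highest.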

How the data were processed

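Gene expression was measured on 12 arrays, 6 per group. The authors deposited 1 value per array for 53617 transcript clusters, and the submitters' processing notes name Affymetrix Expression Console. Version, background correction and normalization were not stated in the sources used. These deposited numbers were taken to be log2 expression, since they run from 1.62 to 14.4 with array medians between 4.44 and 4.51, and were used without further scaling. Single-probe intensities were not used, so no background level could be set, and the number of arrays limits the precision. Clusters were named through the platform annotation: 16098 carried a single symbol, none carried more, and 37519 stayed unnamed. For a gene with several clusters (5 of the 108 members), the one with the highest mean was used. RefSeq (GRCh38.p14) supplied the sequences.

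Differences were tested with limma 3.58.1 in R 4.3.3 (lmFit, eBayes, no trend, no block) over all clusters, two-sided, with Benjamini-Hochberg adjustment over all of them. The procedure was tested on simulated data with noise drawn separately for each cluster and array. Shifts shared by many genes on an array were not simulated. Named members were those with an unadjusted p under 0.05, the 3 smallest p and the 2 highest means of each role group, and DCTN1, KIF5A, MAPT and MAP2; others complete a role and were named after their values were seen. From the lists of other microtubule and centrosome genes and of G2/M genes the 4 with the smallest p were named; cell type markers were named after their values were seen. The members and lists were chosen with earlier results of these data known. Counts and medians of lists carry no test. Replicate numbers recur in both groups, but deviations of same-numbered arrays from their group means correlated between -0.11 and 0.08, so they were not treated as pairs. Alternatives were a replicate block, quantile normalization, median centring, a trend and robust prior, filters on dim clusters, 1 cluster per gene, the mean of a gene's clusters and leaving out each array.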

Additional observations from a re-analysis of the deposited data

Results flagged for a closer look

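The extreme array of each treatment group was compared with its neighbours for 48 named members and 9 role medians. Among these 114 groups, 7 had an extreme array far from its nearest neighbour, and about 1 in 20 does by chance. Mimic replicate 2 gave the top mimic value of KIF20B, 9.67, while the others spanned 9.55 to 9.59. KIF23 was highest in control replicate 4, at 10.85 against 10.63 to 10.71. Control replicate 6 was the lowest control for CEP95, at 8.29 against 8.41 to 8.47, and for CEP55, at 9 against 9.1 to 9.15. The median deviation of the dynactin genes was 0.12 in mimic replicate 3, against -0.01 to 0.01 in the others, and that of the dynein-2 genes was -0.08 in mimic replicate 6, against -0.01 to 0.03. The kinesin light chain median was -0.18 in control replicate 2, against 0.00 to 0.07.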

How the results depend on the processing

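The count of clusters past the adjusted threshold, 6, became 0 with a replicate block or with 1 cluster per named gene, 13 at or above the median, 242 in the brightest 25% and 39 when the prior followed a trend and was robust, and ranged from 0 to 6 without single arrays. The count of members called, 0, became 2 in the brightest 25% of clusters (1.81% of clusters called there) and was 0 without any single array. The 2 were CEP290 (limma adjusted p = 0.0327) and KIF20B (limma adjusted p = 0.0476). With an array left out as well, a step chosen after seeing the data, CEP290 had adjusted p values from 0.0251 to 0.0725 and KIF20B from 0.0186 to 0.0965. CEP290 was called without control replicate 3 or 5 or mimic replicate 4 or 5, and KIF20B without control replicate 5 alone; CEP57L1 was called without control replicate 3 or 5, and CEP162 without control replicate 5. Members at an unadjusted p under 0.05 numbered 13 to 22 without single arrays and 16 to 27 under the other alternatives. The 13 higher centrosomal genes, a count added after seeing the data, became 8 with a replicate block, 9 after quantile normalization and 9 to 13 without single arrays; the cause was not tested. Of 947 values of the 48 named members under these alternatives, 6 changed sign: KLC1 was -0.0124 after quantile normalization and ranged from -0.0103 to 0.0308 without single arrays. DYNLT4 ranged from -0.0565 to 0.0199, MAP2 from -0.0058 to 0.0729 and MAPT from -0.0307 to 0.0073 without single arrays.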

Other observations

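KIF20B, KIF11 and CEP55, 3 of the 15 members that lay higher at an unadjusted limma p under 0.05, are all on chromosome 10. Their printed promoters start at bases 89701340, 92592880 and 93496362, with 14 other named genes between KIF20B and CEP55 in RefSeq's gene order. The shared chromosome was noticed after their values were seen. From KIF20B to CEP55 the array names 17 genes, 12 of them with a higher mean after the mimic. At an unadjusted limma p under 0.05, 5 were higher and 1 was lower, and the median difference was 0.03. Over all named genes 6.69% were higher and 4.19% lower by that rule. Leaving out KIF20B, KIF11 and CEP55, whose values prompted the count, 2 of the other 14 were higher and 1 was lower. The 2 higher genes were EXOC6, an exocyst subunit of vesicle docking, and PCGF5, a Polycomb ring finger protein, with differences of 0.21 (limma adjusted p = 0.224) and 0.12 (limma adjusted p = 0.418). Every mimic array of EXOC6 lay above every control. The lower gene was FGFBP3, at -0.20 with a mean of 4.69. Among those between them, IDE and RPP30 had 0.03 and 0.01 and MARCHF5 -0.02.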
